A study of Mus musculus with 4 samples.

Results

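The SLAM (signalling lymphocytic activation molecule) receptors and the small SH2 adaptors that bind their tails were examined by RNA sequencing in type 1 innate lymphoid cells (ILC1s) of the mouse, which reside in tissues and are related to natural killer (NK) cells. The 9 genes were taken by symbol: the receptors Slamf1, Slamf6, Slamf7, Cd48, Ly9 and Cd84, and the adaptors Sh2d1a, Sh2d1b1 and Sh2d2a. Of these, 8 were found among the 40481 genes of the count table, and Sh2d1b1 was not analysed here. Of the 8, 7 passed the filter on low counts and were tested, and Slamf6 did not pass. The ILC1s, sorted on the integrin CD49a, came from Inpp4b flox/flox mice (control libraries 1 and 2) and from Ncr1-iCre Inpp4b flox/flox mice (libraries 3 and 4, labelled knockout). Both groups carried the floxed Inpp4b alleles. The groups thus differed in the iCre transgene, named after Ncr1, the gene of the receptor NKp46 of NK cells and ILC1s, as well as in any deletion it caused. Liver was given as the tissue of control library 1, and the other libraries carried only the cell type. The sources used here do not give the age, sex or pooling of the mice.

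SLAM receptors are immunoglobulin-like proteins of haematopoietic cells. Most of them bind a second copy of themselves on a neighbouring cell, while CD48 is a lipid-anchored ligand for 2B4, the product of Cd244a, and for CD2. Tyrosine motifs in the receptor tails recruit SAP (Sh2d1a) or the EAT-2 proteins (Sh2d1b1 and Sh2d1b2), and without these adaptors the same motifs recruit inhibitory phosphatases. In NK cells the balance of adaptors and phosphatases is known to set whether contact with another blood cell activates or restrains killing. Sh2d2a encodes TSAd, an SH2 adaptor of T cells and NK cells that binds the kinase LCK and is not a SAP protein.

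All 6 receptor genes lie within 365 kb of chromosome 1 in the mm10 assembly (171588624 to 171953170, GENCODE M21). In order they were Ly9 (ENSMUSG00000004707, 171588624 to 171607410, minus strand), Slamf7 (ENSMUSG00000038179, 171632403 to 171653035, minus strand), Cd48 (ENSMUSG00000015355, 171682009 to 171705258), Slamf1 (ENSMUSG00000015316, 171767127 to 171801184), Cd84 (ENSMUSG00000038147, 171839697 to 171890718) and Slamf6 (ENSMUSG00000015314, 171917515 to 171953170). Sh2d2a (ENSMUSG00000028071) lies on chromosome 3 at 87846755 to 87855722 and Sh2d1a (ENSMUSG00000005696) on chromosome X at 42502453 to 42529330. Each is annotated as protein coding.

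The 300 bases around the RefSeq start sites (GRCm38.p6) of Cd48 and Slamf6 are shown because these were the highest and the lowest of the 6 receptors in these cells. They run 5′ to 3′ on the plus strand, from chr1:171681742-171682041 for Cd48 and from chr1:171917212-171917511 for Slamf6. Capitals mark every match, on either strand, to TTCC (the core of ETS factor sites), TGTGGT (the core of RUNX sites) or GGTGTG (part of a T-box site), the last of which overlaps TGTGGT in Cd48.
Cd48: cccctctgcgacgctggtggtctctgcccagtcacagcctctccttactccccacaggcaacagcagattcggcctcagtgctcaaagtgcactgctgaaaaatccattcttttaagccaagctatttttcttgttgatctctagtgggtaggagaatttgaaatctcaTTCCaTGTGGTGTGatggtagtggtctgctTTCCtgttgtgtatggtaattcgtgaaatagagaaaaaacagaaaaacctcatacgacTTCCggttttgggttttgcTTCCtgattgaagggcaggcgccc
Slamf6: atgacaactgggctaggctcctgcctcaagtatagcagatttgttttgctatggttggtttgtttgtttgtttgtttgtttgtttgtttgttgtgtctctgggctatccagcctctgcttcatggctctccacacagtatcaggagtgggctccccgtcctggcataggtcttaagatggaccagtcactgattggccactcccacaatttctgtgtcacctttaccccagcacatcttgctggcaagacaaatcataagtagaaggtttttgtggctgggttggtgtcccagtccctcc
The Cd48 window held 4 matches to TTCC, 1 to TGTGGT and 1 to GGTGTG, and the Slamf6 window held 0 of each. Of 32851 mouse windows of this length, 96.0% held TTCC, 16.8% TGTGGT and 19.0% GGTGTG, with a median of 3 TTCC matches. The windows of Slamf1, Slamf7 and Cd84 held 6, 4 and 7 matches to TTCC. Ly9, Sh2d1a and Sh2d2a had no matched window. Matching letters are a description of the window and show no binding.

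The 2 EAT-2 genes are alike in sequence, so some of their reads may not be separable. That bears on Sh2d1b2, the copy that was counted. Their last 150 coding bases are shown, which held 24 of the 37 bases at which the copies differed. They come from the GENCODE M21 transcripts of the plus strand of chromosome 1 and run 5′ to 3′, and capitals mark the bases at which the copies differ.
Sh2d1b1: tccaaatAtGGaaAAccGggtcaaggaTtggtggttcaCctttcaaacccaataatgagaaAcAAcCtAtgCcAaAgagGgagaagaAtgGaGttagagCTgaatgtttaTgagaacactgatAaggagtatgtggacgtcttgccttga
Sh2d1b2: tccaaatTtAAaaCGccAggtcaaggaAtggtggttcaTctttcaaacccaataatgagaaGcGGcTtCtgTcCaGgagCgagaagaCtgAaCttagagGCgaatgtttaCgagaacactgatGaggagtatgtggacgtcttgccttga
Over the 399 coding bases the copies differed at 37, an identity of 90.7%, and the longest identical run was 154 bases. Of all 50-base words in Sh2d1b2 transcripts, 13.1% also occurred in Sh2d1b1. The values of Sh2d1b2 below are uncertain for that reason.

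The libraries held 42380840 to 54878210 counts. Levels are CPM, the counts of a gene relative to the library total after scaling by the trimmed mean of M values (TMM), and differences are log2 fold changes of the libraries labelled knockout over the controls. Each change was tested with edgeR's quasi-likelihood test, two-sided, and p-values were adjusted by the Benjamini-Hochberg method over the 14863 genes tested, and a gene was called at an adjusted p under 0.05. Inpp4b itself was not lower in the libraries labelled knockout (78.7 and 106.5 CPM in controls, 142.5 and 86.0 CPM in libraries 3 and 4). The whole-gene count does not check a deletion of part of that gene. Ncr1, the other check of the labels, was at 1672 and 1772 CPM, against 1202 and 1077 CPM, with an edgeR adjusted p of 0.28 and a DESeq2 adjusted p of 0.0297. The 13 ILC1 markers summed to 7087 and 7438 CPM in the controls and to 7168 and 7348 CPM in libraries 3 and 4. Cxcr6 and Klrb1c were the most abundant. Libraries 3 and 4 both lay above both controls for 4 of the 13 and below for 4, against 19.5% and 20.8% of all genes. Ifng was at 97.8 and 75.8 CPM, against 142.7 and 171.4 CPM (edgeR adjusted p = 0.277, DESeq2 adjusted p = 0.0104). Gpr183 was also higher, at 12.7 and 18.0 CPM, against 21.2 and 36.6 CPM (edgeR adjusted p = 0.494). Itga1, which encodes CD49a, was at 217.6 and 207.9 CPM in the controls and at 178.9 and 206.0 CPM in libraries 3 and 4 (edgeR adjusted p = 0.849).

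The family split into abundant and nearly silent members, in the same libraries and along the same stretch of chromosome 1. To compare genes, CPM was divided by the merged exon length. Cd48 was the highest of the members in every library, at 295.6, 294.4, 438.3 and 460.5 CPM per kb in libraries 1 to 4. Sh2d2a came second (58.9, 94.0, 66.8 and 85.9 CPM per kb), followed by Ly9 (46.6, 61.6, 59.2 and 59.7) and Slamf7 (38.1, 49.1, 40.3 and 48.7). Cd84, a self-binding receptor, stood at 19.4, 21.1, 23.2 and 20.3 CPM per kb. Sh2d2a and Ly9 overlapped in their ranges over the 4 libraries, as did Ly9 and Slamf7, whereas Cd48 and Cd84 overlapped with no neighbour in the order. Below these, Sh2d1a reached 0.179, 0.669, 1.80 and 2.34 CPM per kb, and Slamf1 0.21, 0.00344, 0.00756 and 0.135. Sh2d1a and Slamf1 exchanged places in control library 1, and their ranges overlapped. Slamf6, at 0.0111 CPM per kb in control 1 and 0 elsewhere, was below Slamf1 in each library, though their ranges overlapped. With the length of the longest transcript in place of merged exons, the order of the members' means did not change. The control mean rose from 54.1 to 71.9 CPM per kb for Ly9 and from 20.2 to 37.0 CPM per kb for Cd84. For Cd48 it went from 295.0 to 295.7 CPM per kb, so the shares below depend on the length used.

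**Figure D1:**
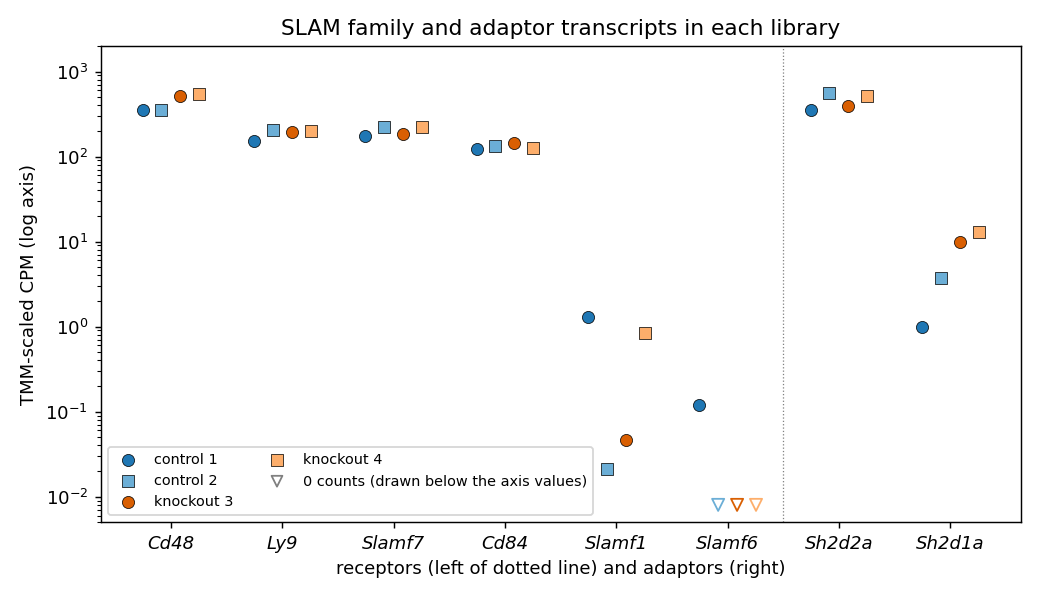
TMM-scaled CPM of the 8 counted members in each of the 4 libraries, on a log axis, with receptors left of the dotted line and adaptors right of it. Cd48, Ly9, Slamf7, Cd84 and Sh2d2a stand above 100 CPM in each library, Sh2d1a lies between 0.983 and 12.9 CPM, and open triangles mark the 3 libraries with 0 Slamf6 counts.

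Cd48 made up most of the signal per length of the 6 receptors counted here. That sum leaves out Cd244a, a further SLAM receptor gene. Cd244a was at 108.7 and 137.8 CPM per kb in the controls and at 105.2 and 122.5 CPM per kb in libraries 3 and 4. Cd48 gave 73.9% and 69.1% of the summed CPM per kb of the 6 receptors in the controls. It gave 78.1% and 78.1% in the libraries labelled knockout. Ly9 gave 11.6% and 14.4% against 10.6% and 10.1%, Slamf7 9.54% and 11.5% against 7.18% and 8.27%, and Cd84 4.86% and 4.94% against 4.14% and 3.44%. The 6 receptors summed to 400.0 and 426.1 CPM per kb in controls and 561.0 and 589.3 CPM per kb in the libraries labelled knockout. Without Cd48 the sums were 104.4 and 131.7 CPM per kb, against 122.7 and 128.8 CPM per kb. The groups overlapped once Cd48 was left out.

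**Figure D2:**
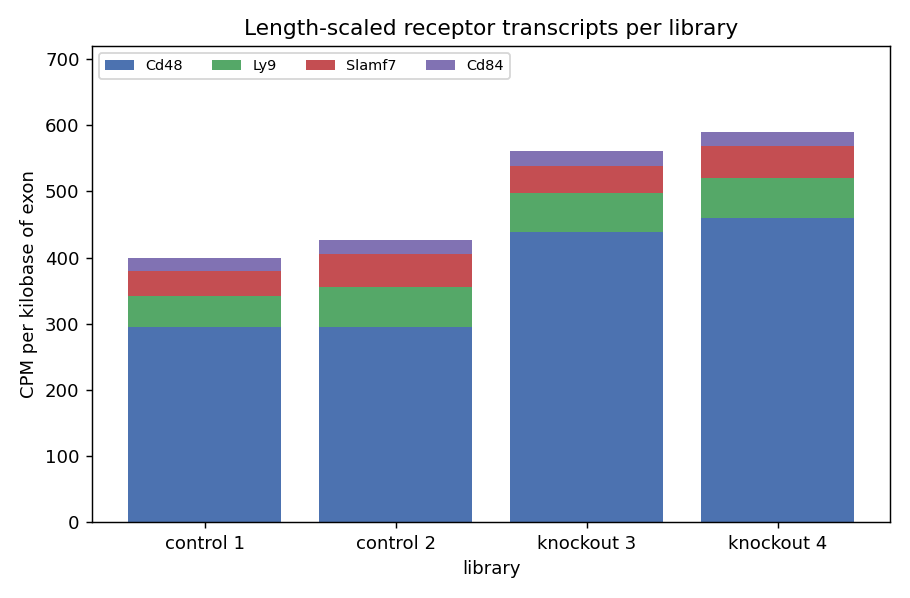
Stacked bars give CPM per kilobase of merged exon for Cd48, Ly9, Slamf7 and Cd84 in each library, with Slamf1 and Slamf6 left out because they would be too thin to see. The bars differ mainly in the Cd48 segment, from 294.4 to 460.5 CPM per kb, while the other segments overlap between the groups.

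No member passed the threshold of the edgeR test in either direction (0 of 7 tested), where 0.141% of all genes were called higher and 0.0135% lower. Before adjustment, at p under 0.05, 2 of the 7 were higher, Cd48 and Sh2d1a, and 0 were lower, against 4.48% of all genes higher and 5.17% lower. DESeq2 called the same 2 members higher and 0 lower, where it called 1.83% of all genes higher and 1.34% lower. So did edgeR without the filter on low counts, which called 1.25% of all genes higher. The median log2 fold change was 0.10 over the 7 members and -0.01 over all genes. For 2 members both libraries labelled knockout lay above both controls, and for 0 both lay below, against 19.5% and 20.8% of all genes. In such bulk samples, more cells of a type and more RNA per cell cannot be told apart.

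Cd48, the ligand of 2B4 and CD2, was at 351.5 and 350.0 CPM in the controls and at 521.1 and 547.5 CPM in libraries 3 and 4. The controls nearly coincided, and both libraries labelled knockout lay above them. The log2 fold change was 0.61 (SE 0.13, 95% interval 0.30 to 0.92 before adjustment), or 1.52-fold, with an edgeR adjusted p of 0.258. DESeq2 gave 0.62 (SE 0.17) with an adjusted p of 0.0156. Over the 13 alternatives the fold change stayed between 0.54 and 0.63, while the adjusted p ranged from 0.0156 to 0.66.

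Ly9, a self-binding receptor whose loss is known to expand innate-like lymphocytes, was at 154.1 and 203.6 CPM in the controls and at 195.8 and 197.4 CPM in libraries 3 and 4. Both libraries labelled knockout fell between the controls. The log2 fold change was 0.14 (SE 0.17, interval -0.28 to 0.56, edgeR adjusted p = 0.91). Slamf7, the receptor known as CRACC that signals through EAT-2, was at 174.6 and 224.7 CPM in the controls and at 184.3 and 223.0 CPM in libraries 3 and 4. These also lay between the controls, with a log2 fold change of 0.03 (SE 0.18, interval -0.41 to 0.47, edgeR adjusted p = 0.992). An annotated antisense gene, Gm37787, covers 9.2% of the Slamf7 exon bases.

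Cd84 was at 121.9 and 132.1 CPM in the controls and at 145.6 and 127.0 CPM in libraries 3 and 4. Library 3 was the highest and library 4 fell between the controls. The log2 fold change was 0.10 (SE 0.15, interval -0.27 to 0.47, edgeR adjusted p = 0.931). In linear terms the unadjusted intervals of Ly9, Slamf7 and Cd84 reached up to 1.47-fold, 1.39-fold and 1.39-fold and down to 0.821, 0.75 and 0.831 of the control level.

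Of the remaining receptors, Slamf1 was low and uneven and Slamf6 was at the limit of detection. Slamf1, the founding member and a receptor of activated T cells and B cells, had 75 and 1 counts in controls and 2 and 43 counts in libraries 3 and 4. Control 1 and knockout 4 were high, control 2 and knockout 3 were close to 0, and the groups overlapped. Its log2 fold change of -0.58 had an SE of 1.87 (edgeR adjusted p = 0.982). Without control 1, control 2, knockout 3 and knockout 4 in turn it was 4.22, -1.54, 0.29 and -3.80. Slamf6, which encodes Ly108, a self-binding receptor of NK cells, T cells and B cells, had 7 counts in control 1 and 0 in the other libraries. A count of 0 allows up to 3 counts, which is 0.0635 CPM in control 2, 0.0698 CPM in knockout 3 and 0.058 CPM in knockout 4, counting error only. The nearest of the other 5 receptors, Cd84, had 6240 to 7068 counts in the same libraries. Gm10521, a protein-coding gene model between Cd84 and Slamf6, had 12 and 2 counts in controls and 1 and 0 counts in libraries 3 and 4. Of the 50-base words of Slamf6 transcripts, 0.0% occurred in another annotated gene.

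**Figure D3:**
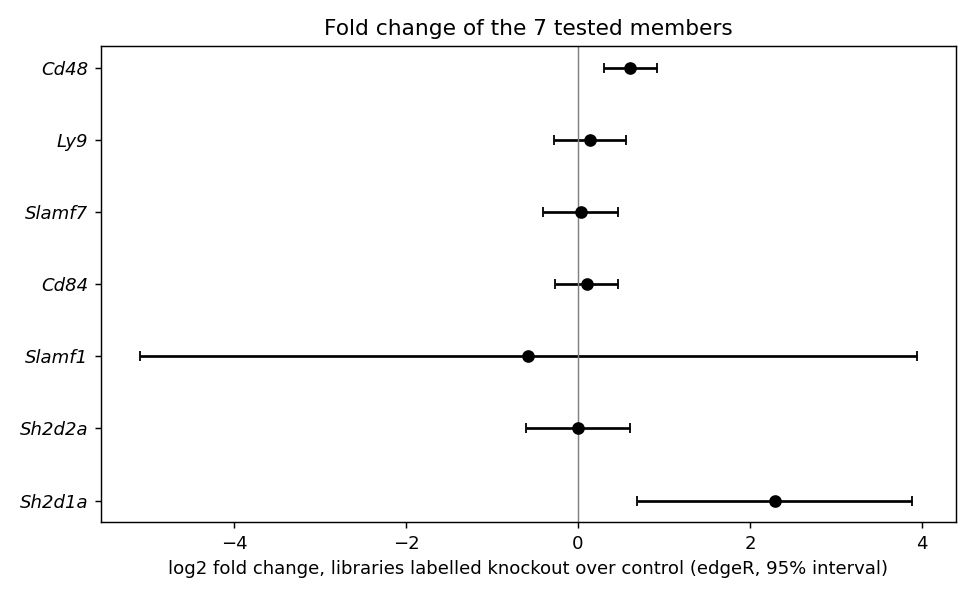
Points are log2 fold changes of the 7 tested members, libraries labelled knockout over control, and bars are 95% intervals of the edgeR fit before adjustment. The intervals of Cd48 and Sh2d1a lie above 0, and that of Slamf1 runs from -5.10 to 3.94.

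Of the adaptors, Sh2d1a was low and Sh2d2a stood above 5 of the 6 receptors counted here, all but Cd48, in CPM per kb. Sh2d1a, the gene of SAP, was at 0.983 and 3.68 CPM in the controls and at 9.91 and 12.9 CPM in libraries 3 and 4, from 57, 174, 426 and 667 counts. Both libraries labelled knockout lay above both controls, and the controls themselves differed several-fold. The log2 fold change was 2.29 (SE 0.66, interval 0.69 to 3.89 before adjustment), or 4.90-fold, with an edgeR adjusted p of 0.366. DESeq2 gave 2.31 (SE 0.63) with an adjusted p of 0.0131. The fold change was 1.63 without control 1 and 3.54 without control 2, and the adjusted p ranged from 0.000966 to 0.536 over the 13 alternatives. Tenm1, on the opposite strand, covers 26.6% of the Sh2d1a exon bases and itself had 0, 0, 2 and 0 counts.

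Sh2d2a, the gene of TSAd, was at 349.9 and 558.0 CPM in the controls and at 396.9 and 510.2 CPM in libraries 3 and 4. The libraries labelled knockout fell between the controls. The log2 fold change was 0.00 (SE 0.25, interval -0.60 to 0.60, edgeR adjusted p = 0.999). Sh2d1b2, the counted EAT-2 copy, was at 63.2 and 71.7 CPM in the controls and at 60.3 and 61.2 CPM in libraries 3 and 4, a difference of -0.15 on the log2 scale (edgeR adjusted p = 0.888, SE 0.17). Per kb of exon the EAT-2 copy exceeded Sh2d1a in every library, 139-fold and 42.2-fold in controls and 13.2-fold and 10.3-fold in the libraries labelled knockout. Sh2d2a exceeded Sh2d1a 330-fold and 140-fold in controls and 37.1-fold and 36.7-fold in libraries 3 and 4. Both ratios were lower in each library labelled knockout than in either control, and the difference in ratio was not tested.

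The summed markers of T cells, myeloid cells and conventional NK cells were higher in the same libraries as Cd48 and Sh2d1a. So were those of B cells, plasmacytoid dendritic cells and neutrophils and mast cells, whereas hepatocyte and platelet and erythroid sums overlapped between the groups. Cd48 is expressed by most blood cells, and Sh2d1a by T cells and NK cells. The 14 T cell markers summed to 2508 and 2470 CPM in the controls and to 2993 and 4062 CPM in libraries 3 and 4. Among the 12 tested, 1 was called higher by edgeR (Trac) and 6 were higher at an unadjusted p under 0.05, while DESeq2 called Cd3e, Cd3d, Trac and Cd8a. Not every marker of the list was higher. Trbc1, at 442.9 and 615.5 CPM in the controls, was at 389.5 and 425.2 CPM in libraries 3 and 4, and Cd8b1, Bcl11b and Lef1 also had log2 fold changes below 0 with overlapping groups. The most abundant were Cd3g and Trbc2, and Cd3g alone, at 1469 and 1255 CPM, made up most of the sum in the controls. Trac and Cd3e gave little of it. Trac was at 7.31 and 5.67 CPM in the controls and at 85.1 and 200.9 CPM in libraries 3 and 4. Cd3e was at 26.5 and 15.1 CPM, against 152.5 and 371.0 CPM. The 22 monocyte, macrophage and dendritic cell markers summed to 1087 and 1220 CPM against 3059 and 3621 CPM, with 5 of 21 tested called higher, and Cd74 and Itgax were the most abundant. Of the 21, 14 were higher and 1 was lower at an unadjusted p under 0.05. The lower one was Zbtb46, a dendritic cell factor, at 9.28 and 12.3 CPM in the controls and 4.56 and 4.64 CPM in libraries 3 and 4, and Clec4f was also below both controls in both (4.79 and 0.676 CPM, against 5.69 and 4.8 CPM). No marker of the T cell and myeloid lists was at 0 in both libraries of a group. The 12 conventional NK cell markers were led by Prf1 and Klra7. They summed to 634.3 and 658.7 CPM, against 978.0 and 1684 CPM, with 1 of 11 tested called higher. In both libraries 3 and 4, 7 of the 11 lay above both controls and 1 below, against 19.5% and 20.8% of all genes. The 1 below was Itga2, at 7.95 and 8.28 CPM, against 5.79 and 7.02 CPM. Klra1 was uneven, at 3.74 and 5.97 CPM in the controls and at 19.0 and 327.5 CPM in libraries 3 and 4. Cma1 had 0 counts in both controls and 0 and 25 counts in libraries 3 and 4. The 10 B cell and plasma cell markers were led by Cd79b and Cd22. They summed to 14.0 to 16.4 CPM in controls and 20.3 to 26.8 CPM in libraries 3 and 4. Mzb1 had 0 counts in both controls and 0 and 4 counts in libraries 3 and 4. Pax5 had 5 and 1 counts in controls and 0 in both libraries labelled knockout.

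The part of these cells in the Cd48 and Sh2d1a differences was not tested. Plasmacytoid dendritic cell markers (7, led by Irf8 and Bst2) summed to 144.3 and 160.5 CPM, against 180.9 and 197.6 CPM. Neutrophil and mast cell markers (10, led by Mmp9 and Csf3r) summed to 108.9 and 100.5 CPM, against 253.6 and 174.6 CPM. Retnlg was at 0 in every library, and S100a9 had 10 and 0 counts in controls and 0 in libraries 3 and 4. Mmp9 alone made up most of that sum, at 101.9 and 94.4 CPM in the controls and 242.9 and 153.5 CPM in libraries 3 and 4. Hepatocyte markers (10, led by Fabp1 and Apoa2) summed to 402.8 and 213.0 CPM, against 371.1 and 294.1 CPM. Platelet and erythroid markers (8, led by Hbb-bs and Hba-a1) summed to 314.6 and 227.2 CPM, against 190.9 and 679.0 CPM. Gp1bb had 1 and 0 counts in controls and 0 in libraries 3 and 4. The globins made up most of that sum, and 2 platelet markers were lower at an unadjusted p under 0.05. Itga2b had 258 and 72 counts in controls and 3 and 1 in libraries 3 and 4 (edgeR adjusted p = 0.226, DESeq2 adjusted p = 4.12e-05), and Gp9 had 47 and 24 counts against 0 and 1 (edgeR adjusted p = 0.353, DESeq2 adjusted p = 0.133). Of the 34 tested markers in these lists and the B cell list together, edgeR called 0, with 4 higher and 2 lower at p under 0.05 before adjustment, and DESeq2 called 3 higher and 1 lower.

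None of the other pathway genes described here passed the edgeR test. Of 36 further genes of the pathway, 34 were tested and edgeR called 0, and before adjustment 3 were higher and 0 lower at p under 0.05, where 4.48% and 5.17% of all genes were. DESeq2 called 2 higher (Slamf8 and Slamf9) and 0 lower, against 1.83% and 1.34% of all genes. The median log2 fold change of the 34 was 0.00, beside -0.01 over all genes. Both libraries labelled knockout lay above both controls for 10 of the 34 and below for 6, against 19.5% and 20.8% of all genes.

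Cd244a, which encodes the CD48 receptor 2B4, was at 530.2 and 672.1 CPM in the controls and at 512.8 and 597.2 CPM in libraries 3 and 4 (log2 fold change -0.12, edgeR adjusted p = 0.93, SE 0.17). Per kb of exon, Cd48 exceeded Cd244a 2.72-fold and 2.14-fold in controls and 4.17-fold and 3.76-fold in libraries 3 and 4, a ratio that was not tested. Cd2, the other binding partner of CD48, was at 315.6 and 287.7 CPM, against 336.3 and 383.8 CPM (0.26, edgeR adjusted p = 0.653, SE 0.14). Slamf8, a family member of myeloid cells, was at 0.397 and 1.42 CPM in the controls and at 2.51 and 11.6 CPM in libraries 3 and 4. Slamf9, which is likewise myeloid, was at 0.897 and 0.296 CPM, against 3.44 and 4.91 CPM. Their log2 fold changes of 2.96 (edgeR adjusted p = 0.408, SE 0.96) and 2.80 (edgeR adjusted p = 0.348, SE 0.77) missed the threshold.

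Of the 5 tested kinases, edgeR and DESeq2 called 0, and Fgr alone was higher at an unadjusted p under 0.05. Fgr, a Src-family kinase of phagocytes and NK cells, was at 108.1 and 155.0 CPM, against 178.2 and 192.4 CPM (0.49, edgeR adjusted p = 0.512, SE 0.20). Fyn, the kinase that SAP recruits, was at 42.3 and 69.0 CPM, against 54.0 and 64.0 CPM (0.08, edgeR adjusted p = 0.982, SE 0.27), and Lyn had a log2 fold change of 0.08 (SE 0.14). Csk, which restrains Src-family kinases, had a log2 fold change of 0.02 (SE 0.15). Src and Yes1 did not pass the filter.

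The 4 phosphatases of the pathway list had overlapping groups. Ptpn6 (SHP-1) was at 312.2 and 429.0 CPM in the controls and at 391.5 and 477.9 CPM in libraries 3 and 4 (0.23, edgeR adjusted p = 0.812, SE 0.20). Inpp5d (SHIP-1) was at 187.8 and 258.0 CPM, against 220.3 and 229.8 CPM (0.01, SE 0.18), Ptpn11 (SHP-2) had a log2 fold change of -0.02 (SE 0.32) and Ptprc (CD45) of 0.19 (SE 0.16). Of the 19 downstream signalling genes, edgeR and DESeq2 called 0, with 0 at an unadjusted p under 0.05. Those with the smallest p were Bcl10 (0.42, SE 0.19), Rasa1 (-0.47, SE 0.21), Cbl (-0.68, SE 0.33) and Sos1 (-0.65, SE 0.33). Hsh2d, a relative of Sh2d2a, had a log2 fold change of -0.88 (SE 0.63).

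**Figure D4:**
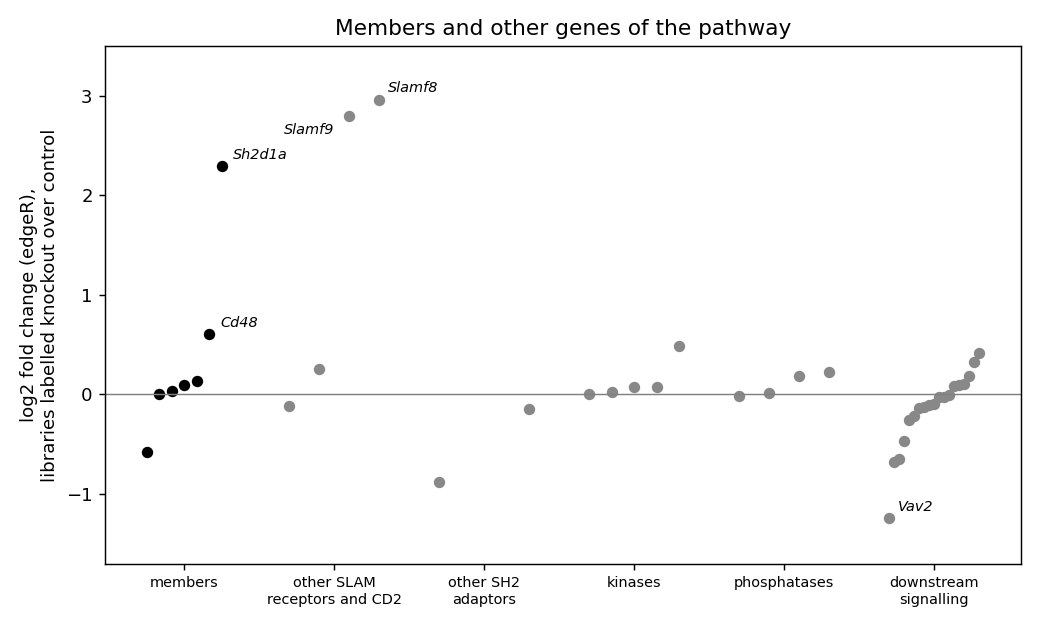
Each point is the log2 fold change of 1 tested gene, libraries labelled knockout over control, with the 7 members in black and the 34 other pathway genes in grey by list. Sh2d1a, Slamf8 and Slamf9 stand above 2, Vav2 is at -1.24, and the 4 phosphatases lie between -0.02 and 0.23.

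Genes around the receptors differed little in the median. Of the table's genes, 12 are annotated within or across the receptor span, of which 7 were tested and 3 had 0 counts. With the 5 nearest tested genes on each side, 17 genes had a median log2 fold change of 0.04, and edgeR called 0, with 2 at an unadjusted p under 0.05 (Cd48 and F11r, the latter a junction adhesion molecule gene). F11r was at 0.310 and 0.720 CPM in the controls and at 3.07 and 4.33 CPM in libraries 3 and 4, with an edgeR adjusted p of 0.329 and a DESeq2 adjusted p of 0.00999. Among the 17 at 10 CPM or more, Cd48 and Alyref2 had the largest fold changes. Alyref2 was at -0.36 (edgeR adjusted p = 0.836). The next tested genes beyond Slamf6, Ncstn and Copa, were at 0.04 and 0.15.

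Sh2d1a had the widest range of the tested members, 3.17 on the log2 (CPM + 0.5) scale over the 4 libraries. Among 7700 genes of at least 10 CPM on average, the centred profiles nearest to it by Euclidean distance were those of Themis2 (distance 0.31), Treml4 (0.50) and Nfam1 (0.54). Themis2, a signalling adaptor gene of B cells and macrophages, was at 5.60 and 14.7 CPM in the controls and at 34.8 and 40.5 CPM in libraries 3 and 4. Treml4, a receptor gene of myeloid cells, was at 4.54 and 14.5 CPM, against 54.1 and 47.6 CPM, and Nfam1, a membrane adaptor gene of immune cells, at 7.28 and 19.0 CPM, against 39.4 and 42.6 CPM. With 4 libraries this likeness describes these samples only.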

How the data were processed

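The file the authors deposited holds raw counts of reads per Ensembl gene, with 1 column for each of the 4 libraries. Per the labels' protocols, these were low-input SMARTer libraries of total RNA read on a NovaSeq. Per the submitters' processing notes, STAR 2.5.1a, featureCounts 1.4.6-p5, Subread, bcl2fastq and DESeq2 were used with mm10. The role of each, the annotation and the strand setting are not given in the sources used here, so a gene and its antisense partner cannot be told apart. The 276 repeated lines of the 40757, identical to the first, were dropped, which left 40481 genes.

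The count test was edgeR 4.0.16 in R 4.3.3 after filterByExpr and TMM scaling (robust quasi-likelihood, genotype as the only term, 2 residual degrees of freedom, Benjamini-Hochberg over 14863 genes). Alternatives were DESeq2 1.42.0, limma-voom (limma 3.58.1), non-robust edgeR, scaling by upper quartile or by DESeq2's size factors, no filter, a filter of at least 50 counts in 2 libraries, leaving out each library, removing markers of other cells and a replicate block. The scripts were tested on simulated data. Replicates differed far beyond sampling noise (chi-square per degree of freedom 98.6 in controls and 89.6 in knockouts), so each library counted as 1 sample. Separate animals are not stated in the labels, so the p-values reflect only how these samples vary, which may be technical. No molecular identifiers are named in the labels, so reads may be copies of 1 molecule and floors cover counting error only.

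Exon lengths and positions came from GENCODE M21 of the same assembly and promoter windows from RefSeq (GRCm38.p6), in which 6 of the 9 members matched. Members and lists were chosen with earlier results of these data known. In the kinase list, 2 genes are not reported here and are left out of its counts. Named genes were Inpp4b, Ncr1, all members, up to 4 of each pathway list by smallest p, the 2 most abundant of each marker list, locus genes called or with the 2 largest changes at 10 CPM or more, and the 3 genes nearest in profile to the member of widest range. Vav2, F11r, Gm10521, Ncstn, Copa, Tenm1, Gm37787, the markers lower in libraries 3 and 4 and genes named as called by a tool or found at 0 counts were chosen after their values were seen. So were Itga1, Ifng, Gpr183 and Klra1.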

Additional observations from a re-analysis of the deposited data

How the results depend on the processing

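The sample titles number the controls 1 and 2 and the knockouts 3 and 4, while the names of the deposited columns number both groups 1 and 2. Nothing in the labels says that these numbers mark a shared animal or batch. Same-numbered libraries had deviations from their group means that correlated at 0.12 over 14863 genes. With the column number as a replicate block, an alternative chosen after seeing the data that leaves 1 residual degree of freedom, 0 members, 0 further pathway genes and 0 of all genes were called (21 higher and 2 lower without it), and log2 fold changes were 0.61 for Cd48, 2.55 for Sh2d1a, 0.00 for Slamf1 and 0.03 for Sh2d2a, the latter 2 with the sign turned. With the marker genes of other cells left out of the fit, called ones such as Trac and Cd74 among them, 0 of all genes were called as well. Leaving out genes removes no cells, so it does not test what other cells contributed. Calls in the edgeR fit lay near the threshold, with an adjusted p of 0.0489 for each of Trac, Klra7 and Cd74. The members called higher were 0 in the edgeR fit and 2 (Cd48 and Sh2d1a) with DESeq2 and with edgeR without a low-count filter, which called 1.25% of 23999 genes higher. Further pathway genes called higher were 0 in the edgeR fit, and 2 (Slamf8 and Slamf9) with DESeq2 and without a filter. The cause was not tested. No member or pathway gene was called lower in any of the 13 alternatives, and none was called with a library left out, where a lone library is assumed to vary like the others. The direction of Sh2d2a, 0.00 in the edgeR fit, turned to 0.01 with DESeq2's size factors and with DESeq2, 0.03 with upper-quartile factors, 0.04 with limma-voom and 0.00 without other-cell markers. That of Slamf1 turned to 0.05 with limma-voom. With 1 library left out, log2 fold changes ran from 0.54 to 0.62 for Cd48, 1.63 to 3.54 for Sh2d1a, -0.05 to 0.36 for Ly9, -0.14 to 0.23 for Slamf7, -0.02 to 0.17 for Cd84, -0.30 to 0.38 for Sh2d2a and -3.80 to 4.22 for Slamf1. Ly9 turned down without control 1, Cd84 without knockout 3, and Slamf7 without control 1 or knockout 4. Slamf1 was not tested under the filter of 50 counts. Slamf6 was too low to test, and Slamf1 rested on 121 counts in all.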
